A study of Homo sapiens with 4 samples.

Results

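Housekeeping genes are needed by every cell, while tissue genes are transcribed in a specialised organ and silent elsewhere, which makes them natural reference points for a map of active chromatin. Acetylation of lysine 27 on histone H3 (H3K27ac) marks active promoters and enhancers. It is written by the acetyltransferases p300 and CBP, is removed by histone deacetylases, and cannot coexist with the repressive methylation of the same lysine. A transcribed gene usually carries H3K27ac on the nucleosomes on both sides of its start site.

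The 9 genes described here were taken by name and role, with no measured value in the rule, out of 19111 autosomal protein-coding genes in GENCODE v44. The 5 housekeeping genes were ACTB, GAPDH, B2M, EEF1A1 and RPLP0, and the 4 silent tissue genes were ALB, INS, MYH7 and NEUROD1. H3K27ac was profiled by chromatin immunoprecipitation and sequencing (ChIP-seq) in 1 library of REH and 1 library of 697, both lines grown in RPMI with serum and with no treatment named, and the input DNA of each line was sequenced as its background. Both are B-cell precursor acute lymphoblastic leukemia (B-ALL) cell lines, and REH carries the ETV6/RUNX1 fusion that 697 lacks. With 1 library per cell line there is no replicate check, and no test between the lines was possible. After removal of duplicate tags the ChIP libraries held 65241657 tags in REH and 68911420 in 697, and the authors called 44626 and 74504 peaks in them. Without tag counts for the single peaks, the covered bases carry no counting interval. A window without a peak had no region past the cutoff of the peak caller, which does not show that H3K27ac was absent there.

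Each gene was given a window, its body on hg19 rounded outwards to whole kb with 5 kb added on each side, and the bases of the window under peaks were counted in each line. The bodies are as long as the genes in RefSeq, allowing for the rounding, with 1 exception. NEUROD1 spans 12223 bp in RefSeq on GRCh38, longer than its body of 5 kb here.

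Promoter sequences show how the genes of the groups differ in the DNA that H3K27ac would flank. RefSeq promoters on GRCh38 were matched for 7 of the 9 genes, all but ACTB and MYH7. The 250 bases before the start site are printed for 5 of them, with CpG dinucleotides in capitals. They are RPLP0 (chr12:120201112-120201361, minus strand) and EEF1A1 (chr6:73521033-73521282, minus strand) as promoters under peaks in both lines, and ALB (chr4:73404037-73404286, plus strand), INS (chr11:2161210-2161459, minus strand) and NEUROD1 (chr2:181680518-181680767, minus strand) as promoters without a peak.
RPLP0: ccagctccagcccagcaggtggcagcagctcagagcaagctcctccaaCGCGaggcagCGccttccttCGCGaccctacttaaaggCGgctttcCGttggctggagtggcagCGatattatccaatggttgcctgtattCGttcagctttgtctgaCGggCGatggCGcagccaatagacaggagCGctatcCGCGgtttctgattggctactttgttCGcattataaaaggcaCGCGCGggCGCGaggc
EEF1A1: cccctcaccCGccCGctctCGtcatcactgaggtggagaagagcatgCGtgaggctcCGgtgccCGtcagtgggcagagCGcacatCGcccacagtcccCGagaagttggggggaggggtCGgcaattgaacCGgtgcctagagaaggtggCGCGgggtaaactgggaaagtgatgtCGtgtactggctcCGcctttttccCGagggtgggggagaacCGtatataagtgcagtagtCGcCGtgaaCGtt
ALB: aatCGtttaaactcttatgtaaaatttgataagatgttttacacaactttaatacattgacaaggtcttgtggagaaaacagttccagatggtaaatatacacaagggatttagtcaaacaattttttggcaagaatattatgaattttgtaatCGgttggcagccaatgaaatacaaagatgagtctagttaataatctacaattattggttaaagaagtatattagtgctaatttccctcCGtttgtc
INS: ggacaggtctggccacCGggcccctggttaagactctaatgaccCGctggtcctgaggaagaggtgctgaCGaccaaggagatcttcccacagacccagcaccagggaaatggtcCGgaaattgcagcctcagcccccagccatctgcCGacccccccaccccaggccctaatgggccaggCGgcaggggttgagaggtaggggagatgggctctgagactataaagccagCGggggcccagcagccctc
NEUROD1: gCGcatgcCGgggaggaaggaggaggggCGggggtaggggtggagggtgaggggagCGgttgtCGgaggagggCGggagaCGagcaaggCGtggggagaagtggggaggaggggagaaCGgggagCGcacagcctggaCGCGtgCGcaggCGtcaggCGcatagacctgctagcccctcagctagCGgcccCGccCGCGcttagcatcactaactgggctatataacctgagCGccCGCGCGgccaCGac

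The 4 matched housekeeping promoters held 18 to 22 CpGs in these 250 bases, with 18 in B2M, 20 in EEF1A1, 21 in RPLP0 and 22 in GAPDH. The RefSeq start used for GAPDH lies 747 bp inside the 5′ end of the gene, at a later start site. The median over all 35114 promoters of the table was 11 CpGs. ALB held 3 CpGs and INS held 7, below that median, but NEUROD1 held 24, more than any of the matched housekeeping promoters. CpG content therefore separated ALB and INS from the housekeeping genes and did not separate NEUROD1. GC content gave no such order, with 58.4% to 71.2% in the housekeeping promoters, 30% in ALB, 64.0% in INS and 70.0% in NEUROD1.

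**Figure D1:**
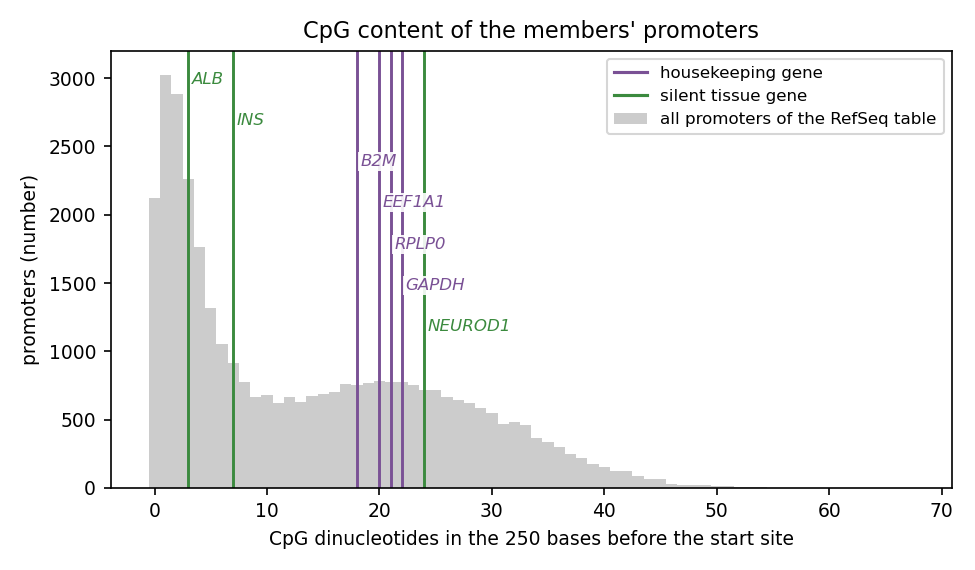
Number of promoters in the RefSeq table (vertical axis) by the number of CpG dinucleotides in the 250 bases before the start site (horizontal axis), with a line for each of the 7 matched genes. The housekeeping genes lie between 18 and 22 CpGs, ALB and INS at 3 and 7, and NEUROD1 at 24.

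Short motifs were searched on both strands of the same 250 bases, and a match is a description of the letters only. The TATA box TATAAA, found in 10.7% of all promoters of the table, occurred in RPLP0 and INS. CCAAT, found in 32%, occurred 3 times in RPLP0, 2 times in ALB and 1 time in B2M. The GC box GGGCGG, found in 42.6%, occurred 3 times in NEUROD1, 2 times in GAPDH and 1 time in EEF1A1. No motif of the 3 was found in all members of a group, and no motif is contained in another.

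All 5 housekeeping windows held a peak in REH and all 5 held a peak in 697. Of the 191876 autosomal tiles of 15 kb into which the genome was cut for reference, 17.9% held a REH peak, 23.5% a 697 peak and 13.4% a peak in both. Over the 5 housekeeping windows, peaks covered 34.0% of the bases in REH and 21.4% in 697, against means of 2.3% and 3.48% over all tiles. The 4 silent windows held 0 peaks in REH and 1 short peak in 697, so that 0% and 0.427% of their bases were covered. The lowest housekeeping window, B2M with 22.6% in REH and 15.2% in 697, lay above the highest silent window in each line, and the groups did not overlap. Stricter limits on the deposited values removed 697 peaks from the housekeeping windows. At an FDR of at most 5%, 3 windows kept a 697 peak, and at a −log10(p) of at least 10, 0 did. The share of all 697 peaks that pass these limits is not given here, and those columns may not describe the peak in their row.

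**Figure D2:**
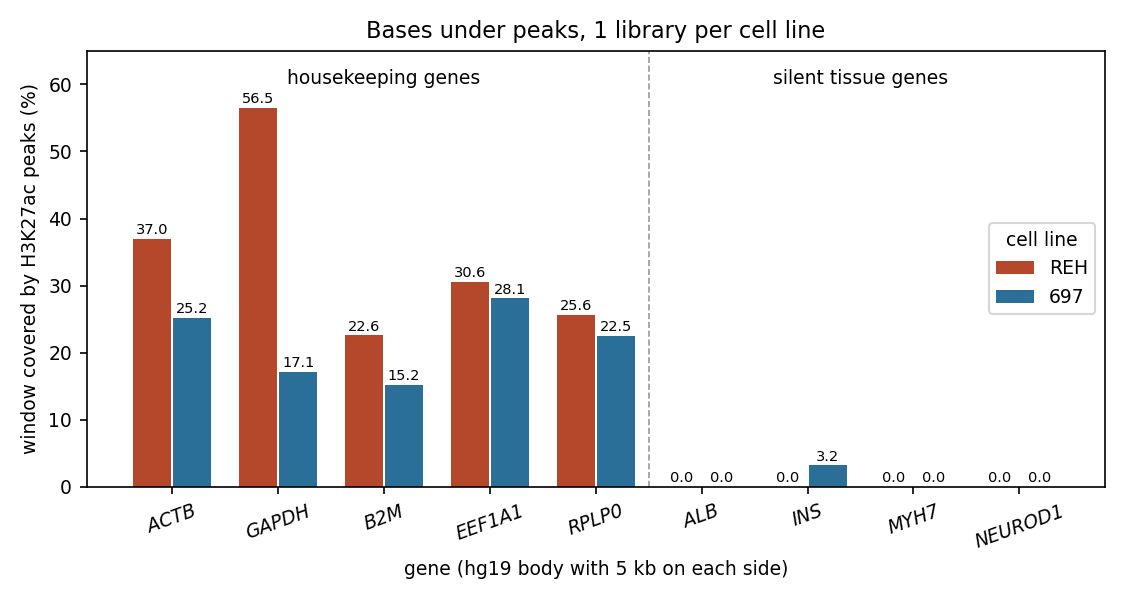
Percent of each window under H3K27ac peaks (vertical axis) for the 5 housekeeping genes and the 4 silent tissue genes (horizontal axis), as 1 bar for REH and 1 for 697, without error bars because each line has 1 library. Housekeeping windows range from 15.2% to 56.5%, and INS in 697, at 3.20%, is the only silent window above 0.

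ACTB encodes the cytoskeletal beta-actin. Its window, chr7:5561001-5576000, was covered over 5554 bp or 37.0% in REH and over 3777 bp or 25.2% in 697. A peak of 4958 bp in REH, from 5568301 to 5573258, and of 3777 bp in 697, from 5569069 to 5572845, lay over the 5′ end. They covered 2700 bp of the rounded body and 2258 bp upstream of it in REH, and 1932 and 1845 bp in 697. The gene is 3454 bp long in RefSeq against a rounded body of 5000 bp, so the bases in and before the gene cannot be divided more closely. The second REH peak, of 596 bp, lay past the 3′ end, between 5562750 and 5563345, where 697 had none. Among 15 kb tiles, 0.991% were covered at least as much as ACTB in REH and 4.07% in 697.

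GAPDH encodes a glycolytic enzyme. Its window, chr12:6638001-6653000, was the most covered of the 9 in REH, with 8478 bp or 56.5%, but only 2562 bp or 17.1% were covered in 697. The REH peak over the 5′ end was 6825 bp long, from 6641174 to 6647998, and left 2 of the 5000 bp of the rounded body uncovered. The 697 peak there was 2562 bp long and covered 2078 bp of the body. A second REH peak of 1653 bp lay past the 3′ end, on the side where IFFO1 follows on the other strand at 589 bp in RefSeq, and 697 had no peak there. GAPDH had 3.31 times as many covered bases in REH as in 697 and was the only housekeeping window to differ at least 2-fold. In REH, 0.334% of the 15 kb tiles were covered at least as much, and in 697 the figure was 6.8%.

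B2M encodes beta-2-microglobulin, the invariant chain of MHC class I molecules. Its window, chr15:44998001-45016000, was covered over 4073 bp in REH and over 2732 bp in 697. A peak of 4026 bp in REH and of 2732 bp in 697 covered the 5′ end. Their upstream edges lay 1064 and 714 bp before the rounded start, on the side where PATL2 begins on the other strand at 126 bp in RefSeq. The second REH peak, of 1203 bp, reached only 47 bp into the window. It is counted because 1 bp of overlap was enough, and it adds little to the covered bases.

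EEF1A1 encodes translation elongation factor 1 alpha, which brings aminoacyl-tRNA to the ribosome. Its window, chr6:74220001-74236000, was covered almost equally, by 4902 bp in REH and 4488 bp in 697, with 1 peak in each. The upstream edges of these peaks, at 74234307 and 74234306, differed by 1 bp, and the downstream edges by 413 bp. These peaks lay mostly upstream, with 3307 and 3306 bp before the rounded body and 1595 and 1182 bp in it.

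RPLP0 encodes a protein of the ribosomal stalk. Its window, chr12:120629001-120644000, was covered over 3836 bp in REH and over 3371 bp in 697, and was the only window with 2 peaks in both lines. The peaks over the 5′ end, whose promoter is printed above, were 2161 bp long in REH and 2119 bp in 697, the shortest at a housekeeping 5′ end, with 1180 and 1173 bp of them upstream of the rounded body. Their edges differed by 7 bp upstream and 35 bp downstream. The peaks past the 3′ end were 1675 and 1252 bp long, and lay on the side where GCN1, on the same strand, has its 5′ end 1983 bp from RPLP0 in RefSeq. The downstream peaks made up 1675 of the 3836 covered bases in REH and 1252 of the 3371 in 697, bases that cannot be assigned to RPLP0 itself.

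**Figure D3:**
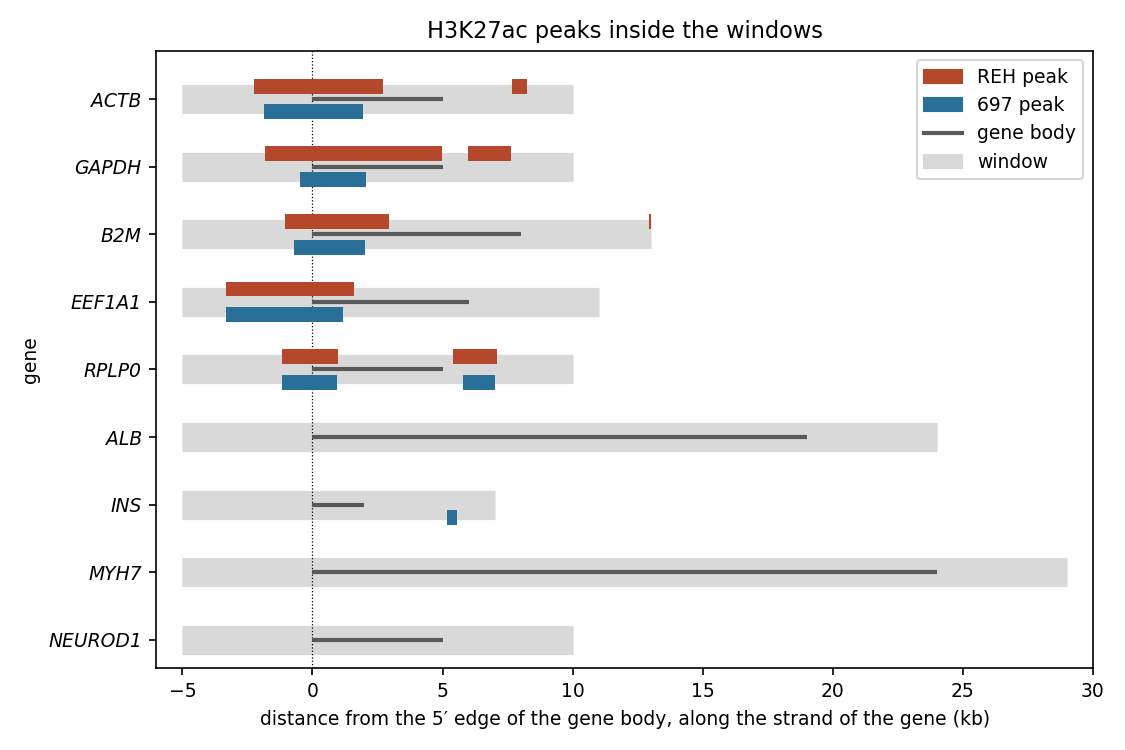
Peaks inside each window by distance from the 5′ edge of the rounded gene body, along the strand of the gene (horizontal axis, kb), with REH peaks above and 697 peaks below the body of each gene (vertical axis). At the 5 housekeeping genes a peak lies over the 5′ edge in both lines, and the INS peak in 697 lies past the 3′ end.

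Each housekeeping gene had a peak over its 5′ end in both lines, and the further peaks in these windows lay past the 3′ end. The kb that holds the 5′ end was wholly covered in both lines at ACTB, GAPDH, B2M and EEF1A1, and to 98.1% in REH and 94.6% in 697 at RPLP0. In no silent gene was any base of that kb covered, in either line. The share of all promoters, or of tiles of that width, covered in this way is not given here. Whether coverage of the 5′ end sets these genes apart from other genes was therefore not tested. Of the bases under peaks in the housekeeping windows, 49.3% in REH and 48.2% in 697 lay in the rounded gene bodies, 35.9% and 44.4% in the upstream flanks, and 14.8% and 7.4% in the downstream flanks. The covered percent of the body was highest at GAPDH in both lines, where it was 100% after rounding in REH and 41.6% in 697, and lowest at RPLP0, with 19.6% and 18.9%.

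REH peaks were the wider ones at the housekeeping genes. In 5 of 5 windows more bases were covered in REH than in 697, by 414 bp at EEF1A1, 465 bp at RPLP0, 1341 bp at B2M, 1777 bp at ACTB and 5916 bp at GAPDH. This order also held at each gene with no flank and with flanks of 2 and 10 kb, but not in wider surroundings. Within 100 kb of the 5′ edge 697 covered more at 3 of the 5 genes, and within 500 kb at 4 of 5. Of the tiles with a peak in both lines, 40.1% had more covered bases in REH, and of those with at least 2500 bp covered in both lines 40.2% did, a limit chosen after the values were seen. The peak over the 5′ end was also longer in REH in 5 of 5 genes, by 1.02 times at RPLP0, 1.09 at EEF1A1, 1.31 at ACTB, 1.47 at B2M and 2.66 at GAPDH. Among 24369 autosomal pairs, a REH and a 697 peak that overlapped each other and no further peak, the REH peak was longer in 44.8%. It was longer by at least as much as at RPLP0 in 43.1% of these pairs, and as at EEF1A1 in 37.5%. For ACTB, B2M and GAPDH these shares were 25.8%, 20.7% and 7.21%. The order at these genes thus ran against the majority in the lists as a whole, in which 697 had more peaks and more covered bases. Each line has 1 library, so the line, the immunoprecipitation and the library cannot be told apart as the source of this difference.

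The 697 peaks lay inside the REH peaks. In each of the 5 housekeeping windows 100% of the bases under 697 peaks were also under a REH peak, while 697 peaks covered 30.2% of the REH bases at GAPDH, 67.1% at B2M, 68.0% at ACTB, 87.9% at RPLP0 and 91.6% at EEF1A1. Such nesting was found in 17.3% of the tiles with a peak in both lines and in 11.1% of those with at least 2500 bp covered in both. By the rule that covered bases differ at least 2-fold, or that only 1 line has a peak, 1 of the 5 housekeeping windows differed, against 39.1% of the tiles with a peak in both lines. Of the tiles with a peak in either line 70.8% did, many of them because the other line had none. The median tile with a peak had 1318 bp covered in REH and 1435 bp in 697, less than any housekeeping window.

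The edges of the peaks over the 5′ ends were compared with those of all overlapping pairs, in which the median distance between a REH edge and its 697 counterpart was 291 bp. The upstream edges at EEF1A1 and RPLP0, 1 and 7 bp apart, were closer than most, at the 0.476 and 2.72 percentiles. Downstream, the edges were 413 bp apart at EEF1A1, at the 60.9 percentile, and 35 bp apart at RPLP0, at the 11.8 percentile. At ACTB and B2M the edges were 350 to 944 bp apart, at the 55.6 to 84.7 percentiles. At GAPDH they were 1343 bp apart upstream and 2920 bp downstream, at the 91.4 and 98.5 percentiles.

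By length, the peaks over the housekeeping 5′ ends ranked from the 80.1 percentile (RPLP0) to the 98.5 percentile (GAPDH) of the REH list, and from the 82.5 percentile (RPLP0) to the 96.1 percentile (EEF1A1) of the 697 list. By the pileup given in the same rows, the mean number of ChIP fragments over the region, their rows lay between the 24.5 and 85.2 percentiles in REH and between the 18.8 and 83.7 percentiles in 697. Pileup values of overlapping peaks were hardly related between the lines, with a Spearman correlation of 0.018 over the 24369 pairs against 0.471 for length. Whether a pileup describes the region in its row is therefore in doubt, and the genes were not ranked by it.

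**Figure D4:**
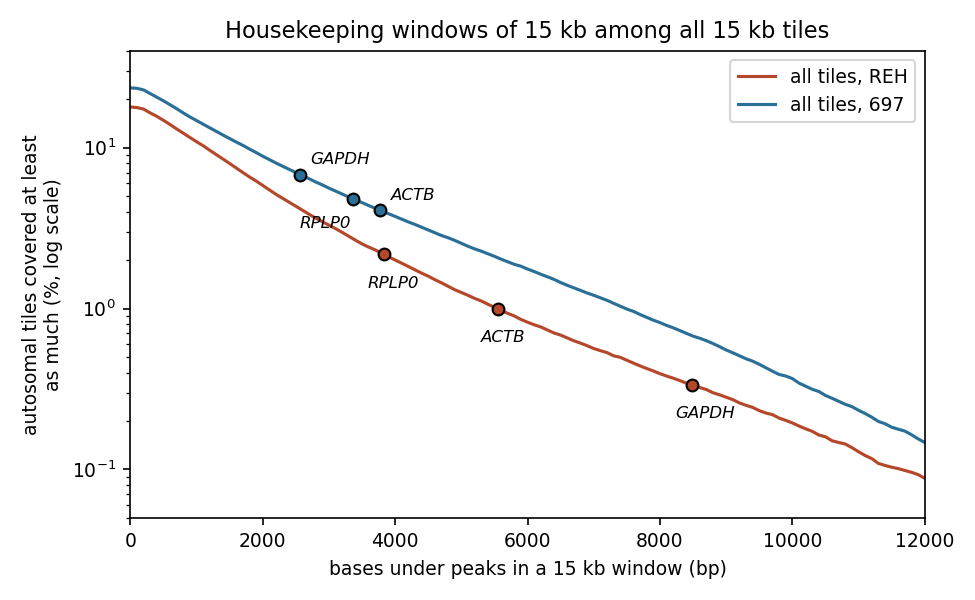
Percent of autosomal 15 kb tiles with at least the given number of bases under peaks (vertical axis, log scale) against that number (horizontal axis, bp), with a curve for each line and points for the 3 housekeeping windows of the same width. GAPDH moves from 0.334% in REH to 6.8% in 697, and RPLP0 from 2.17% to 4.78%.

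ALB, MYH7 and NEUROD1 had no peak in either line, as had 72.0% of the 15 kb tiles. Longer windows hold a peak more often. At the width of the ALB window, 29 kb, 26.9% of the tiles had a REH peak and 32.1% a 697 peak, and at the width of the MYH7 window, 34 kb, 29.4% and 34.5% did. An empty window is therefore the common state of the genome in these lists and does not set these genes apart.

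ALB encodes serum albumin and is transcribed in hepatocytes. Its window, chr4:74264001-74293000, lay in a stretch of 339173 bp without a peak in REH and of 849050 bp in 697. Stretches at least that long made up 3.14% of all gaps between neighbouring peaks in REH and 0.606% in 697, and held 41.3% and 27.1% of the autosomal bases. The nearest peak was 143341 bp from the 5′ edge of the gene in REH and 94473 bp in 697.

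MYH7 encodes the beta heavy chain of cardiac and slow muscle myosin. Its window, chr14:23876001-23910000, lay in a peak-free stretch of 146894 bp in REH and 147104 bp in 697, nearly the same in both lines. Gaps between peaks at least that long held 58.8% of the autosomal bases in REH and 54.8% in 697. The nearest peaks lay upstream, 33955 bp from the 5′ edge in REH and 33964 bp in 697. The next gene on that side in RefSeq is NGDN, on the other strand and 34042 bp away on GRCh38.

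NEUROD1 encodes a transcription factor of neurons and endocrine cells of the pancreas. Its window, chr2:182536001-182551000, was empty in both lines although its promoter is rich in CpGs. The peak-free stretch around it was 234024 bp in REH and 318920 bp in 697. Gaps between peaks at least that long held 49.2% of the autosomal bases in REH and 43.3% in 697. The nearest REH peak began 13920 bp past the 3′ side of the window, where 697 had no peak for 209818 bp. The next gene on that side in RefSeq is CERKL, 11189 bp from NEUROD1.

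INS encodes insulin and is transcribed in pancreatic beta cells. Its window, chr11:2176001-2188000, had no REH peak and a 697 peak of 384 bp, from 2177452 to 2177835, which covered 3.20% of the window. Of the 15 kb tiles, 10.1% had a peak in 697 only. The peak lay 5165 to 5548 bp from the 5′ edge, past the 3′ end, on the side where IGF2 follows at 10212 bp in RefSeq, and left the 5′ end of INS uncovered. INS-IGF2 overlaps INS in RefSeq, and whether the peak lies in it was not examined on hg19. It was shorter than most, at the 17.7 percentile of length in the 697 list. In 697, 21% of tiles as wide as the INS window held a peak and 18.3% were covered at least as much. The peak was lost when only peaks of at least 500 bp were kept. In REH the nearest peak was 29723 bp from the 5′ edge, and the window lay in a stretch of 81388 bp without peaks. Gaps at least that long held 70.8% of the autosomal bases in REH.

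The contrast between the groups held in the nearer surroundings and faded with distance. Within 100 kb of the 5′ edge, peaks covered 7.16% (EEF1A1) to 19% (GAPDH) of the bases around housekeeping genes in REH and 6.7% (RPLP0) to 19.7% (GAPDH) in 697. Around the silent genes they covered 0% (ALB) to 1.43% (NEUROD1) in REH and 0.106% (ALB) to 1.52% (MYH7) in 697, and the groups did not overlap. The housekeeping values include the peaks at the genes themselves. For reference, the mean over all autosomal 15 kb tiles was 2.3% in REH and 3.48% in 697. How surroundings of this size are spread over the genome is not given here, and the groups are few genes chosen by name. Within 500 kb the groups overlapped, with 2.53% to 11.2% around housekeeping genes and 1.73% to 3.36% around silent genes in REH, and 2.6% to 18.1% and 0.59% to 6.6% in 697. EEF1A1, with 2.53% in REH and 2.6% in 697, then lay below MYH7, with 3.36% and 4.38%. In REH, EEF1A1 also lay below INS and NEUROD1, and was the only housekeeping gene below a silent gene. In 697, INS, with 6.6%, lay above all housekeeping genes but GAPDH. The order of the lines inside the windows did not carry over to the surroundings. Within 100 kb, 697 had the larger covered percent at 3 of the 5 housekeeping genes, with 19.7% against 19% at GAPDH, 10.3% against 9.46% at B2M and 8.49% against 7.16% at EEF1A1. Within 500 kb it did at 4 of 5, all but B2M, most clearly at GAPDH, with 18.1% in 697 and 11.2% in REH.

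**Figure D5:**
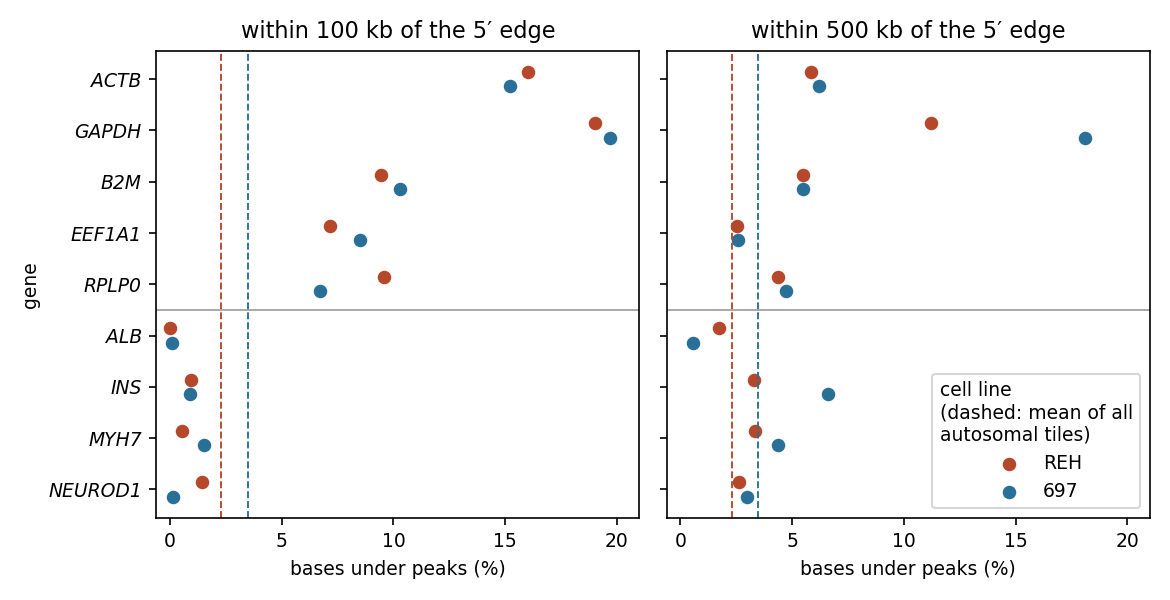
Percent of bases under peaks (horizontal axes) within 100 kb and within 500 kb of the 5′ edge of each gene (vertical axis), as 1 point for REH and 1 for 697, with dashed lines at the mean of all autosomal tiles, 2.3% in REH and 3.48% in 697. The housekeeping genes, above the grey line, lie to the right of the silent genes within 100 kb, and the groups overlap within 500 kb.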

How the data were processed

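Peak lists of the REH and 697 ChIP libraries were used; the input libraries entered only through the peak calls. According to the methods the authors aligned reads to hg19 with Bowtie, Bowtie2 in the submitters' processing notes. Per the file headers the authors called peaks with MACS 2.1.0.20150731 in broad mode against the input, keeping 1 tag per position, with q-value cutoffs of 0.05 and 0.1. The methods name an earlier MACS version. The deposited lists give positions, pileup signal, fold enrichment as a linear ratio, and p-values and q-values on a −log10 scale. The peaks end beyond chromosome 1 of GRCh38, so GRCh38 annotation was used for strand, names, neighbours and promoter sequence only, and further genes could not be placed.

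Windows were the named gene bodies in whole kb with 5 kb on each side. A peak counted from 1 bp of overlap, covered bases were summed per line, and the autosomes were cut into tiles of 15 kb, or of the width of a window, up to the last peak of each chromosome. The genes named are the 9 members and neighbours on a side where a peak lay or was nearest. Members, lists and rules were chosen with earlier results of these data known. No test was run. The interval code was tested on simulated data. There were 9 alternatives per value. The scripts ran in Python 3.11.15 with pandas 2.3.3, numpy 2.4.6, scipy 1.17.1 and matplotlib 3.10.9.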

Additional observations from a re-analysis of the deposited data

How the results depend on the processing

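Of 81 alternative values over the groups 30 moved, and of 162 values per gene and line 49 moved, against a 95% Wilson interval over bases, which are not independent. All 5 housekeeping windows kept a REH peak under 8 of the 9 alternatives, and 4 did at a −log10(p) of at least 10, while no silent window gained one. At that limit the REH peak over the 5′ end was kept only at ACTB and RPLP0. GAPDH kept only its peak past the 3′ end, and B2M only the peak that barely reaches into its window. EEF1A1 kept none. The REH percent over the housekeeping windows stayed above the 697 percent throughout. From 34.0% in REH and 21.4% in 697 it went to 45.6% and 28.1% with no flank, 48.8% and 31.8% with a flank of 2 kb, and 23.8% and 15% with a flank of 10 kb. In REH it was 35.2% with peaks within 1000 bp merged. The 1 silent window with a 697 peak, and its 0.427% of bases, fell to 0 and 0% with no flank, with a flank of 2 kb, among peaks of at least 500 bp, with equal numbers of the longest peaks, at an FDR of at most 5% and at a −log10(p) of at least 10. A flank of 10 kb gave 0.573%. The windows that differed at least 2-fold fell from 2 to 1 in the first 4 of these settings and rose to 4 at a −log10(p) of at least 10.

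At an FDR of at most 5%, the REH percent stayed at 34.0%, while 3 housekeeping windows kept a 697 peak and 11.8% of the bases were covered in 697. At a −log10(p) of at least 10, 0 windows and 0% remained in 697 and 11.9% in REH. The columns behind these settings may not describe the peak in their row. Wider annotated gene lists were not run, because the annotation at hand is on another build. No paired analysis was possible because each line has 1 library.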

Other observations

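The pileup columns of the 2 lines were hardly related anywhere along the chromosomes. The correlation was slightly higher among the first 40 pairs, without a steady trend, and no interval was computed for it. Over autosomal pairs of a REH and a 697 peak that overlapped each other and no further peak, the Spearman correlation of pileup between REH and 697 was 0.081 for the first 10 pairs of each chromosome (n = 220), 0.131 for pairs 11 to 20 (n = 220) and 0.11 for pairs 21 to 40 (n = 440). It was 0.001 for pairs 41 to 100 (n = 1320), 0.02 for pairs 101 to 400 (n = 6535) and 0.012 beyond them (n = 15634). The correlation of peak length lay between 0.425 and 0.534 in the same groups. These are correlations across peaks of 1 library per line, which are not independent replicates, and the cause of the difference was not tested.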
